A study of Mus musculus with 8 samples.

Results

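The NF-κB pathway was examined through 37 genes listed by symbol, covering the transcription factor subunits, their inhibitors, the kinases and adaptors that switch them on, and the feedback genes that switch them off. All 37 were found among the 22609 genes of the files, and all 37 had enough reads to be tested. RNA-seq libraries came from liver CD8 T cells of male mice of the C57BL/6J strain. The mice were 6 weeks old, were given the αCD137 antibody, an agonist, on 3 days (0, 3 and 6) and their liver cells were isolated on day 8. Live cells with CD45, TCRβ and CD8α and without MHCII, NK1.1 and CD4 were gated as KLRG1+ CD127-, a profile of effector cells, and divided into CD11c+ cells (4 libraries) and CD11c- cells (4 libraries). Every library comes from antibody-treated mice, so the effect of the antibody itself could not be compared here. No label states that the libraries are from different mice, and a p-value therefore reflects only the variation from library to library, part or all of which may be technical.

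CD137, the product of Tnfrsf9, is a costimulatory receptor of the TNF receptor family that signals through TRAF adaptors to NF-κB. In the canonical arm, the IKK complex marks the cytoplasmic IκB proteins for destruction, which frees RelA and c-Rel dimers to enter the nucleus within minutes. In the noncanonical arm, the kinase NIK is kept low by TRAF3 and the cIAP ligases until a receptor recruits them, after which NIK and IKKα drive processing of the Nfkb2 precursor and RelB dimers form slowly. Many NF-κB genes are themselves targets of NF-κB, and A20 and IκBα, encoded by Tnfaip3 and Nfkbia, end the response. The comparison asks whether the transcripts of this pathway differ between CD11c+ and CD11c- cells of the same liver gate. Transcript levels were measured, not protein processing, phosphorylation or entry into the nucleus.

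The promoters of several of these genes carry the sequence that NF-κB binds, and 4 of them are shown whole because their genes carry the main results below. Sequences are from RefSeq (GRCm38.p6), run 5′ to 3′ on the gene's own strand from 250 bases before to 50 after a transcript start, and capitals mark matches to the κB consensus on either strand.
Nfkbid, chr7:30422156-30422455, plus strand: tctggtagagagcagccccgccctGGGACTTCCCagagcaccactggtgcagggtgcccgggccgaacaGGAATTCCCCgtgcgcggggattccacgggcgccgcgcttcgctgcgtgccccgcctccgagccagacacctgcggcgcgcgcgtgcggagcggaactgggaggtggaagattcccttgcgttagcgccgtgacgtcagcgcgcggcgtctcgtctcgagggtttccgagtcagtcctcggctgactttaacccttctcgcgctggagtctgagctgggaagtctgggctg
Nfkb2, chr19:46304487-46304786, plus strand: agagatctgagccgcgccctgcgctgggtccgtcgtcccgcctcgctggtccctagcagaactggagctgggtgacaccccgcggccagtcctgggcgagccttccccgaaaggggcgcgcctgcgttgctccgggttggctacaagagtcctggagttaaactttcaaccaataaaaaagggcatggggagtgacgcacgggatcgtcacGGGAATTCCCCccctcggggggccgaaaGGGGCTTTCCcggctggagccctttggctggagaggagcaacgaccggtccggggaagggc
Nfkbia, chr12:55492598-55492897, minus strand: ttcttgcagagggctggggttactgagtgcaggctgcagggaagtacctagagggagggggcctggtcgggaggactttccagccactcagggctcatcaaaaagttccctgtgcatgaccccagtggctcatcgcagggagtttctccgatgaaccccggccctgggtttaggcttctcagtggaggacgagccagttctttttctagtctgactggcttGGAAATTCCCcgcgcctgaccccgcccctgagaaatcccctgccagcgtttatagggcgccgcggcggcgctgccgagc
Tnfaip3, chr10:19015361-19015660, minus strand: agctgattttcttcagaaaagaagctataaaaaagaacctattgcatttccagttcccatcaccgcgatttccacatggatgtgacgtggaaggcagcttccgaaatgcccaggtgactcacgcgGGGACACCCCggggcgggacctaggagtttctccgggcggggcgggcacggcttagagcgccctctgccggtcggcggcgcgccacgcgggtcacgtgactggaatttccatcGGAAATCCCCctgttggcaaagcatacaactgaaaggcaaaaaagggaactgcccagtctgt
The Nfkbid window is the one of its 3 annotated windows that holds a match, and the others hold none. In Nfkb2 the matches begin 39, 38 and 11 bases before the start, the first 2 overlapping, and the Nfkbia match begins 29 bases before it.

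Shorter stretches, each a match with its flanks, show the same element in the promoters of a subunit (Rel), a nuclear IκB (Bcl3), an A20 partner (Tnip1), the brake on NIK (Traf3) and a deubiquitinase (Cyld).
Rel, chr11:23771041-23771071, minus strand: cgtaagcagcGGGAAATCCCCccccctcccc
Bcl3, chr7:19822734-19822763, minus strand: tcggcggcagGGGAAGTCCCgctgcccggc
Tnip1, chr11:54962977-54963008, minus strand: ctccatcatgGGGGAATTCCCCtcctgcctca
Traf3, chr12:111166350-111166379, plus strand: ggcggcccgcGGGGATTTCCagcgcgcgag
Cyld, chr8:88696863-88696892, plus strand: ttgaccgagcGGAAAGTCCCttcagccagc
RefSeq windows were at hand for 29 of the 37 genes, and 13 of these 29 (44.8%) held at least 1 match in any of their windows. Among all 27025 RefSeq genes with a window the share was 9.55%, and among the 15189 genes of the files with one it was 10.9%. Matches lay in 3 of 4 feedback genes, 2 of 3 subunits, 2 of 3 cytoplasmic IκB genes and both nuclear IκB genes with a window. They also lay in Bcl10, in 1 of 3 IKK-related genes, 1 of 3 TAK1 complex genes and 1 of 4 noncanonical control genes. None lay in the windows of the 2 IKK genes, 2 death signalling genes and 2 TRAF adaptors that had one. No window was at hand for Nfkb1, Relb, Nfkbiz, Ikbkb, Tab1, Malt1, Tradd and Tnfaip8, so their promoters were not searched. A match describes the letters of the window and does not show binding.

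The libraries held 5090345 to 7093163 reads in genes, and 10482 to 12581 genes had at least 1 read. Itgax, which encodes CD11c, averaged 243 CPM ± 76.4 in CD11c+ cells and 10.1 ± 5.64 in CD11c- cells (SD, n = 4 each). CPM are read counts divided by the TMM-scaled total of gene reads. The T cell marker Cd8a averaged 1173 CPM ± 70.6 in CD11c+ cells and 1121 ± 86.0 in CD11c- cells, and Cd4 was at 0 in 5 of 8 libraries. Of the 10 T cell markers tested, 5 had a log2 fold change, CD11c+ minus CD11c-, above 0 and 5 below. Cd2 was the 1 without overlap between subsets, against 3.44% of all tested genes, and was lower in CD11c+ cells. Its log2 fold change was -0.21 ± 0.09 (SE), with an adjusted p of 0.991 by edgeR's quasi-likelihood test. The 12 myeloid markers summed to 201, 169.5, 769 and 343 CPM in CD11c+ libraries 1 to 4, against 262, 159, 396 and 250.2 CPM in CD11c- libraries 1 to 4. The 8 dendritic cell markers include the MHC class II genes H2-Aa and H2-Ab1. All 8 summed to 58.1, 49.1, 143 and 117 CPM in CD11c+ libraries 1 to 4, against 25.6, 24.7, 19.4 and 62.4 CPM in CD11c- libraries 1 to 4. Of the myeloid markers, Clec4f was at 0 in 7 of 8 libraries, Adgre1 in 4, Cd14 in 3 and Cybb in 1. Among the 9 myeloid markers with enough reads to be tested, 8 had a log2 fold change above 0 and 1 below. Their median was 0.86, towards CD11c+ cells, and their lowest adjusted p was 0.991 by edgeR's quasi-likelihood test. Of the dendritic markers, Flt3 was at 0 in 7 of 8 libraries, Clec9a and Cd209a in 6 each, Siglech in 4, Zbtb46 in 3 and Xcr1 in 1. Cd209a had reads in 2 CD11c+ libraries and in no CD11c- library, and Xcr1 averaged 3.51 CPM ± 1.56 in CD11c+ cells and 1.01 ± 0.692 in CD11c- cells (SD, n = 4 each). The part of such cells in the results below was not tested. As these are bulk samples, fewer cells of a type and less RNA per cell cannot be told apart. CD11c+ libraries 1 and 2 and CD11c- library 1 had the fewest detected genes, from 10482 to 10892.

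No gene of the pathway passed the threshold. The NF-κB genes took nearly the same share of reads in each subset, 0.329% ± 0.0354 of gene reads in CD11c+ cells and 0.333% ± 0.0189 in CD11c- cells (SD, n = 4 each). With edgeR's quasi-likelihood test and Benjamini-Hochberg adjustment at 0.05, 0 of 37 were called, against 5 of 10073 genes tested (0.0496%). That is 0 higher, against 0.0298% of all tested genes, and 0 lower, against 0.0199%. DESeq2, limma voom and edgeR's other dispersion setting also called 0 of 37. At an unadjusted p under 0.05 from edgeR, 1 of 37 remained (Nfkbid), against 4.7% of all tested genes. Log2 fold changes, CD11c+ minus CD11c-, were above 0 in 19 and below 0 in 18 of the genes, against 51.7% above 0 over all tested genes. Their size was small, with a median absolute log2 fold change of 0.15, against 0.19 over all tested genes, which were not matched for level. They ran from -0.47 (Traf6) to 0.80 (Nfkbid).

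The intervals say how large a difference could still be present, given only the variation from library to library, as for the p-values. For 32 of 37 genes the 95% interval of the fold change lay within 2-fold in either direction, against 60.8% of all tested genes. The other 5 were Nfkbid, Map3k14, Tab3, Tnip2 and Traf6, whose lower or upper bound passed 2-fold. The set of all tested genes was not matched to the 37 for level, and genes with few reads tend to have wider intervals. The widest interval was that of Tab3, at 0.454-fold to 2.58-fold, and Tab3 also had the lowest level of the 37. For Rela the interval was 0.810-fold to 1.28-fold, and for Nfkbia 0.733-fold to 1.11-fold. Libraries that did not overlap between subsets were found for 2 of 37 genes, Nfkbid and Cflar, against 3.44% of all tested genes. Both were higher in CD11c+ cells, against 1.6% of all tested genes, and 0 were lower, against 1.85%.

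**Figure D1:**
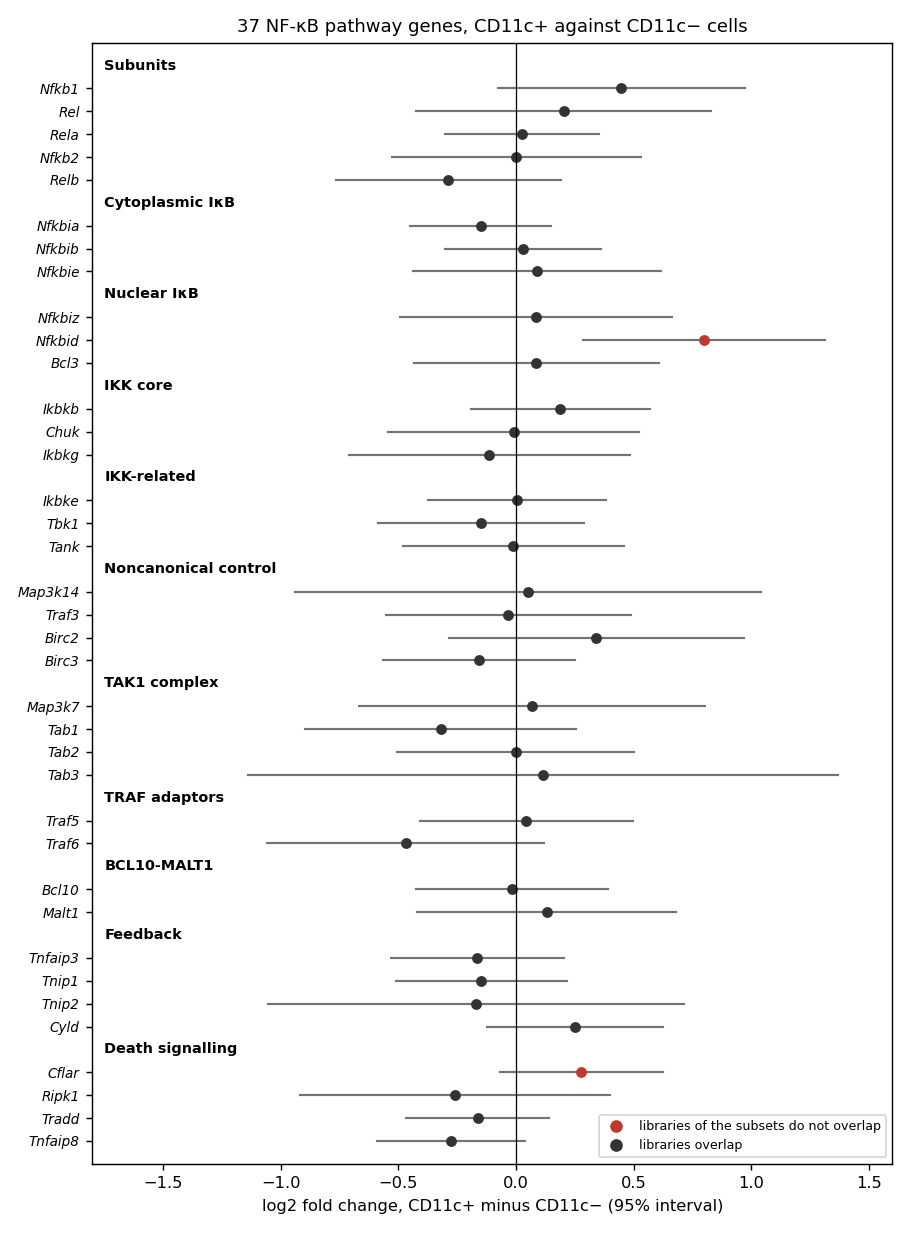
Log2 fold change, CD11c+ minus CD11c-, of the 37 NF-κB genes by role, with points for the edgeR estimate and lines for the 95% interval (4 libraries per subset). Estimates run from -0.47 for Traf6 to 0.80 for Nfkbid, the intervals of all genes but Nfkbid cross 0, and red points mark the 2 genes whose libraries do not overlap.

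Nfkbid, which encodes the nuclear IκB protein IκBNS, a regulator of NF-κB dimers already on DNA, had the largest difference. It was at 75.7, 83.3, 54.5 and 45.5 CPM in CD11c+ libraries 1 to 4, against 40.1, 38.9, 42.3 and 27.3 CPM in CD11c- libraries 1 to 4. All 4 CD11c+ libraries stood above all 4 CD11c- libraries, with CD11c+ libraries 1 and 2 highest and the gap between the lowest CD11c+ and the highest CD11c- library small. The fold was 1.74 (95% interval 1.22 to 2.49) and the log2 fold change 0.80 ± 0.24 (SE), with an unadjusted p of 0.00544 and an adjusted p of 0.856 by edgeR's quasi-likelihood test. Over the 17 other settings the log2 fold change ran from 0.46 to 0.93 and the adjusted p from 0.263 to 1. The lowest value, 0.46 with an unadjusted p of 0.0862 by edgeR, came when the 3 libraries with fewest detected genes were left out, which include the 2 where Nfkbid was highest. In those 2 libraries the myeloid markers summed to 201 and 169.5 CPM, the lowest of the CD11c+ subset, against 159 to 396 CPM in CD11c- libraries. Their dendritic cell markers summed to 58.1 and 49.1 CPM, against 25.6, 24.7, 19.4 and 62.4 CPM in CD11c- libraries 1 to 4. Only CD11c- library 4 lay above them. The part of such cells in the Nfkbid difference was not tested.

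The other nuclear IκB genes differed less. Nfkbiz, encoding IκBζ, a coactivator of selected NF-κB targets, averaged 48.1 CPM ± 16.3 in CD11c+ cells and 45.3 ± 10.1 in CD11c- cells (SD, n = 4 each). Bcl3, a partner of p50 and p52 homodimers, averaged 33.99 CPM ± 7.52 in CD11c+ cells and 32.0 ± 5.34 in CD11c- cells. Neither passed the threshold, and the libraries of the subsets overlapped for both.

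Cflar, which encodes c-FLIP, an inhibitor of caspase-8 activation, was the other gene without overlap. It was at 86.2, 79.6, 73.0 and 65.6 CPM in CD11c+ libraries 1 to 4, against 61.8, 60.2, 64.9 and 64.1 CPM in CD11c- libraries 1 to 4. The lowest CD11c+ library lay just above the highest CD11c- library. Its log2 fold change was 0.28 ± 0.16 (SE), with an adjusted p of 0.991 by edgeR's quasi-likelihood test. The other death signalling genes were the kinase Ripk1, the adaptor Tradd and Tnfaip8, an inhibitor of apoptosis induced by TNF. Their log2 fold changes were -0.26, -0.16 and -0.28, and none passed the threshold.

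**Figure D2:**
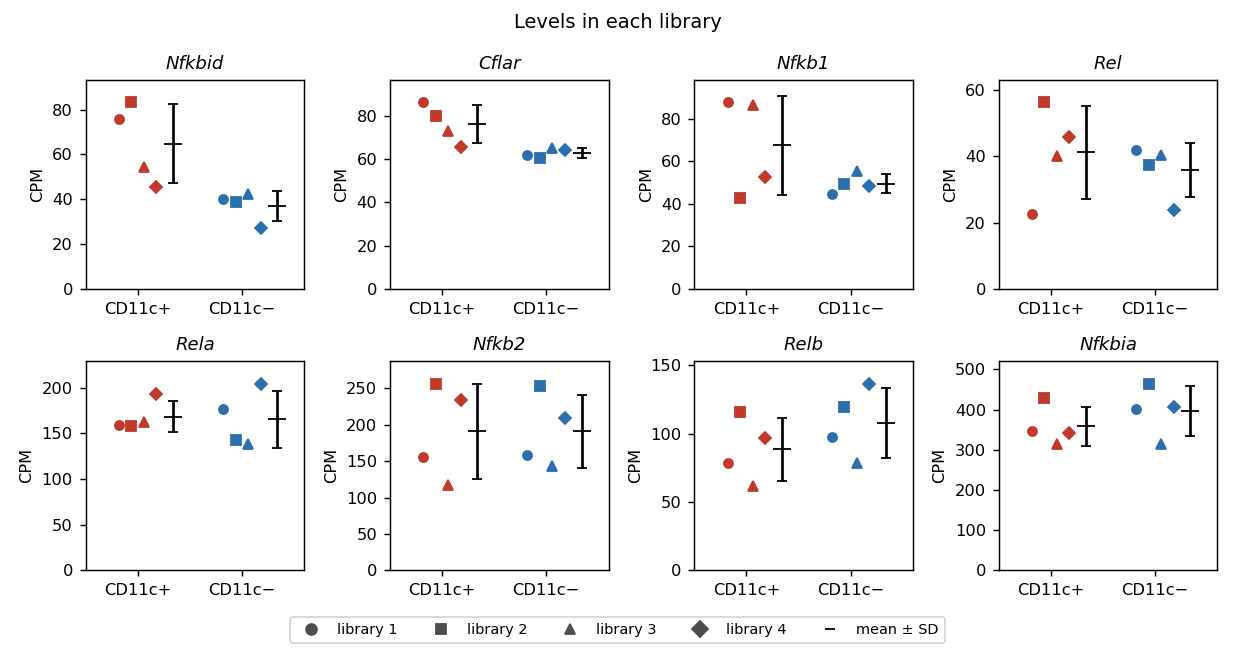
CPM in each library of 8 NF-κB genes, with the CD11c+ libraries in red on the left and the CD11c- libraries in blue on the right of each panel, and the black bars giving mean ± SD over 4 libraries. Nfkbid and Cflar do not overlap between subsets, while the 5 subunits and Nfkbia do, and Nfkb2 ranges from 118 to 256 CPM in CD11c+ libraries and from 143 to 253 CPM in CD11c- libraries.

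Among the subunits, Nfkb1, whose precursor gives p50, was at 87.8, 42.6, 86.6 and 52.7 CPM in CD11c+ libraries 1 to 4, against 44.6, 49.2, 55.3 and 48.5 CPM in CD11c- libraries 1 to 4. CD11c+ libraries 1 and 3 stood well above the rest, but library 2 was the lowest of all 8. Its log2 fold change was 0.45 ± 0.24 (SE), with an adjusted p of 0.991 by edgeR's quasi-likelihood test. Rela, the main activating subunit of the canonical arm, was at 159, 158, 163 and 194 CPM in CD11c+ libraries, against 176, 143, 138 and 205 CPM in CD11c- libraries, and library 4 was the highest of both subsets. Its log2 fold change was 0.03 ± 0.15 (SE).

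Rel, encoding the lymphoid subunit c-Rel, was at 22.7, 56.2, 40.1 and 45.7 CPM in CD11c+ libraries 1 to 4, against 41.8, 37.3, 40.4 and 23.8 CPM in CD11c- libraries 1 to 4. Each subset held 1 low library and the subsets overlapped. The log2 fold change was 0.20 ± 0.29 (SE). Nfkb2, whose precursor gives p52, was at 156, 256, 118 and 234 CPM in CD11c+ libraries, against 158, 253, 143 and 209.7 CPM in CD11c- libraries. Libraries 2 and 4 were high and libraries 1 and 3 low in both subsets, so the means were alike, at 191 CPM ± 65.2 in CD11c+ cells and 191 ± 50.1 in CD11c- cells. The log2 fold change was 0.00, with a 95% interval from -0.53 to 0.53. Relb, the noncanonical partner of p52, was at 78.8, 116, 61.8 and 97.1 CPM in CD11c+ libraries, against 97.3, 119, 78.4 and 137 CPM in CD11c- libraries. The subsets overlapped, and the log2 fold change was -0.29 ± 0.22 (SE).

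Nfkbia and Tnfaip3, the feedback genes that report on recent NF-κB activity in many cell types, were high in all libraries. Nfkbia was at 348, 429, 314 and 342 CPM in CD11c+ libraries 1 to 4, against 401, 465, 315 and 407 CPM in CD11c- libraries 1 to 4. Tnfaip3 was at 243, 297, 239.8 and 281 CPM in CD11c+ libraries, against 195, 309, 332 and 353 CPM in CD11c- libraries. For both genes the subsets overlapped, and for Tnfaip3 CD11c- library 1 lay below every CD11c+ library while the other 3 CD11c- libraries lay above them. The log2 fold changes were -0.15 ± 0.14 and -0.17 ± 0.17 (SE), with an adjusted p of 0.991 by edgeR's quasi-likelihood test for each. Of the other inhibitors, Nfkbib (129 CPM ± 16.7 in CD11c+ cells and 127 ± 18.7 in CD11c- cells) was among the steadiest genes of the pathway, with a highest-to-lowest library ratio of 1.35. Nfkbie had a log2 fold change of 0.09.

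The remaining feedback genes act on ubiquitin chains or on A20. Cyld, a deubiquitinase that takes linear and K63 chains off NF-κB adaptors, had the largest log2 fold change of this role, 0.25 ± 0.17 (SE), and averaged 191 CPM ± 47.5 in CD11c+ cells and 161 ± 16.4 in CD11c- cells (SD, n = 4 each). Its direction turned, to -0.10, when the 3 libraries with fewest detected genes were left out. The A20 partners Tnip1 and Tnip2 had log2 fold changes of -0.15 and -0.17. None of the 4 passed the threshold.

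The genes that hold NIK in check and NIK itself were measured next. Map3k14, which encodes NIK, was at 4.50, 10.8, 11.4 and 11.2 CPM in CD11c+ libraries 1 to 4, against 12.8, 6.16, 7.15 and 10.6 CPM in CD11c- libraries 1 to 4. CD11c+ library 1 was the lowest of all and the subsets overlapped. Its log2 fold change of 0.05 has a 95% interval from -0.94 to 1.04, which leaves room for a fold change anywhere from 0.522 to 2.06 at this depth. Traf3, the adaptor that brings NIK to its ligases, was at 36.95, 87.0, 80.9 and 66.1 CPM in CD11c+ libraries, against 68.7, 70.5, 77.3 and 60.8 CPM in CD11c- libraries. It too was lowest in CD11c+ library 1, while the other libraries ran together, and its log2 fold change was -0.03 ± 0.24 (SE).

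Birc2 and Birc3 encode the ligases cIAP1 and cIAP2. Birc2 was at 82.1, 82.1, 32.1 and 43.5 CPM in CD11c+ libraries 1 to 4, against 47.3, 53.9, 48.9 and 38.9 CPM in CD11c- libraries 1 to 4. CD11c+ libraries 1 and 2 were the highest of all and CD11c+ library 3 the lowest. Birc3 was at 79.4, 85.9, 51.3 and 73.6 CPM in CD11c+ libraries, against 95.6, 74.1, 76.6 and 77.2 CPM in CD11c- libraries, again with CD11c+ library 3 lowest. The log2 fold changes were 0.34 ± 0.29 for Birc2 and -0.16 ± 0.19 for Birc3 (SE). That of Birc2 ran from -0.33 to 0.54 over the 17 other settings, so its direction depended on them.

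In the kinase and adaptor layer no gene passed the threshold either. Among the core IKK genes, Ikbkb, the catalytic subunit of the canonical arm, averaged 141 CPM ± 29.5 in CD11c+ cells and 124 ± 16.5 in CD11c- cells (SD, n = 4 each). Chuk, encoding IKKα, and Ikbkg, encoding the scaffold NEMO, had log2 fold changes of -0.01 and -0.11. The exons of Ikbkg share bases with G6pdx on the opposite strand, and without a stated strand setting it is not known how reads over the shared bases were counted. The same holds for Nfkb2 with Psd, for Ripk1 with Serpinb6a and for Nfkbib with Sirt2. Traf5 shares bases with Mir3473c on the same strand. Of the IKK-related kinases and their adaptor, Tbk1 moved furthest, with a log2 fold change of -0.15 ± 0.20 (SE), and Ikbke and Tank had values of 0.00 and -0.01.

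Traf6, the ubiquitin ligase downstream of Toll-like and interleukin-1 receptors, had the lowest fold change of the pathway. It averaged 43.8 CPM ± 16.2 in CD11c+ cells and 60.6 ± 14.0 in CD11c- cells (SD, n = 4 each). The log2 fold change was -0.47 ± 0.27 (SE), with an adjusted p of 0.991 by edgeR's quasi-likelihood test. Traf5, an adaptor of TNF receptor family members, was at 0.04. In the TAK1 complex, which activates IKK, Tab1 had the largest log2 fold change, -0.32 ± 0.27 (SE), with 30.2 to 36.8 CPM in CD11c+ libraries and 30.4 to 65.5 CPM in CD11c- libraries. Its value rested on CD11c- library 1, the highest, and was -0.03 without it. The kinase Map3k7 and the chain-binding subunits Tab2 and Tab3 had values of 0.07, 0.00 and 0.11. Bcl10 and Malt1, which link the T cell receptor to IKK, had values of -0.02 and 0.13, and Malt1 averaged 107 CPM ± 32.2 in CD11c+ cells and 97.5 ± 30.7 in CD11c- cells.

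Levels can be compared between genes only per length of transcript. CPM were divided by the exon length in kb of GENCODE vM21 (GRCm38), which is not the annotation the reads were counted with, so these levels are approximate. The length joins the exons of all annotated transcripts of a gene, and was 12061 bases for Nfkb1 and 19078 for Ikbkb. Where the transcripts present are shorter than that, the level of a gene is understated and its rank is too low. Nfkbia was the highest of the 37, at 222 CPM per kb ± 30.8 in CD11c+ cells and 247 ± 38.2 in CD11c- cells (SD, n = 4 each). Nfkbib, Tradd and Rela came next, at 58.9, 56.6 and 54.3 CPM per kb over all 8 libraries, and their SDs of 7.58, 5.87 and 7.57 exceed the steps between them. Among the subunits the order was Rela, then Nfkb2 at 41.7 CPM per kb ± 11.7, Relb at 25.3 ± 6.40, Rel at 5.16 ± 1.48 and Nfkb1 at 4.84 ± 1.51 (SD, n = 8). Rel and Nfkb1 did not differ beyond that spread. Before division by length, Nfkb1 averaged 67.4 CPM ± 23.2 in CD11c+ cells and 49.4 ± 4.44 in CD11c- cells. Rel averaged 41.2 CPM ± 14.0 in CD11c+ cells and 35.8 ± 8.24 in CD11c- cells. The lowest were Map3k7 at 2.78, Map3k14 at 1.42 and Tab3 at 0.892 CPM per kb.

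**Figure D3:**
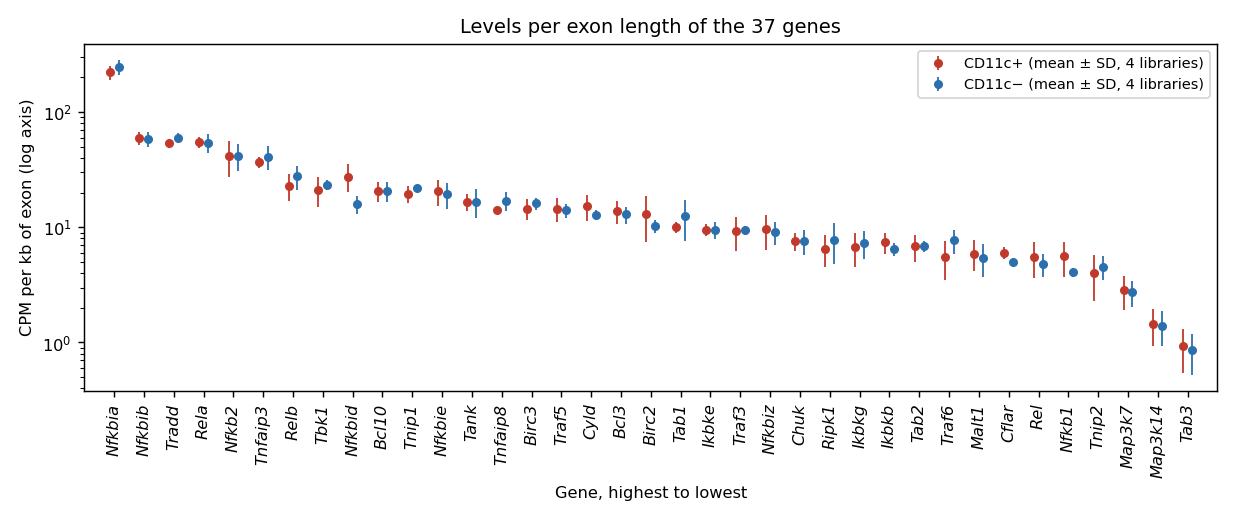
CPM per kb of exon (log axis) of the 37 genes, ordered from highest to lowest, with points for the mean and bars for the SD over 4 CD11c+ libraries (red, left) and 4 CD11c- libraries (blue, right). Nfkbia stands highest at 235 CPM per kb over all 8 libraries and Tab3 lowest at 0.892. The mean ± SD bars of Nfkbid and Cflar lie apart between subsets, with CD11c+ higher.

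The canonical and noncanonical arms were then each given a score, the mean over genes of log2 CPM centred on each gene's own mean, so that 0 is the mean of the 8 libraries. The canonical set was Nfkb1, Rel, Rela, Nfkbia, Nfkbib, Nfkbie, Ikbkb, Ikbkg, Map3k7, Tab1, Tab2 and Tab3. The noncanonical set was Nfkb2, Relb, Map3k14, Chuk, Traf3, Birc2 and Birc3. Each set averages genes that drive its arm with genes that hold it back, such as Nfkbia and Traf3. A score therefore gives transcript level and not the activity of an arm. The canonical score over 12 genes was 0.05, -0.09, 0.04 and 0.06 in CD11c+ libraries 1 to 4, against 0.04, 0.04, -0.13 and -0.02 in CD11c- libraries 1 to 4. The noncanonical score over 7 genes was -0.27, 0.33, -0.26 and 0.10 in CD11c+ libraries, against 0.11, 0.10, -0.08 and -0.02 in CD11c- libraries. The CD11c+ libraries thus lay on both sides of all CD11c- libraries for the noncanonical score, with libraries 1 and 3 low, library 2 high and library 4 among them.

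Canonical minus noncanonical, the score difference was 0.32, -0.43, 0.30 and -0.04 in CD11c+ libraries 1 to 4, against -0.07, -0.05, -0.05 and 0.00 in CD11c- libraries 1 to 4. Its mean was 0.04 ± 0.352 in CD11c+ cells and -0.04 ± 0.0312 in CD11c- cells (SD, n = 4 each), so the subsets differed by 0.08, well under the spread among CD11c+ libraries. The sign turned to -0.01 without CD11c+ library 1 and again to -0.01 without CD11c+ library 3. The scores describe these libraries and were not tested.

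**Figure D4:**
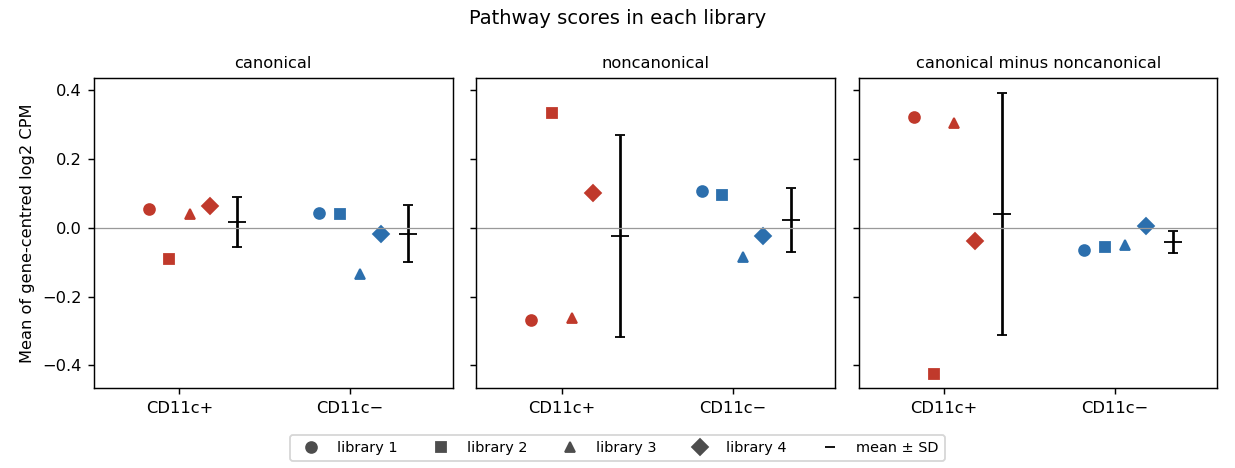
Canonical score, noncanonical score and their difference in each library (mean of gene-centred log2 CPM), with CD11c+ libraries in red on the left, CD11c- libraries in blue on the right, and black bars for mean ± SD over 4 libraries. The CD11c+ libraries spread from -0.43 to 0.32 in the difference, while the CD11c- libraries lie between -0.07 and 0.00.

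The receptor that the antibody binds had like levels in both subsets. Tnfrsf9, itself a target of NF-κB, was at 324, 491, 220.0 and 373 CPM in CD11c+ libraries 1 to 4, against 274, 501, 275 and 357 CPM in CD11c- libraries 1 to 4, with a log2 fold change of 0.00 (95% interval -0.52 to 0.52). Library 2 was highest and library 4 next in both subsets, as for Nfkb2. This likeness was noticed after the values were seen, and the correlation of every other tested gene with Tnfrsf9 was then computed over the 8 libraries on log2 CPM.

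Nfkb2 followed Tnfrsf9 across libraries within both subsets. Pearson's r was 0.95 (two-sided exact permutation p = 0.000198, 0.333 after Benjamini-Hochberg adjustment over 10072 genes) and Spearman's rho 0.90 (exact permutation p = 0.00456, adjusted 0.582). The adjusted values do not pass the threshold, and 0 of 10072 genes did, the lowest adjusted value being 0.25. By Pearson's r, Nfkb2 ranked 2 of the 10072. Without the 2 libraries farthest from the median of Tnfrsf9 (CD11c+ library 3 and CD11c- library 2) r was 0.92, and with each subset centred on its own mean it was 0.95. Leaving out any 1 library gave 0.93 to 0.97. The permutations treat the 8 libraries as independent. Same-numbered libraries of the subsets were each other's best match in deviations from the subset means, and Nfkb2 and Tnfrsf9 both go by number, so if numbers mark a shared source these p-values are too small. Over the pathway, 1 of 37 genes reached an r of 0.8 or more, against 1.42% of all genes.

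Relb, Nfkbia and Ikbkg had lower correlations with Tnfrsf9. Relb had an r of 0.78 and a rho of 0.69 (exact permutation p = 0.023 and 0.0694, adjusted 0.589 and 0.588), and its r was 0.57 without the 2 farthest libraries. Nfkbia had an r of 0.78 and a rho of 0.76 (exact permutation p = 0.0255 and 0.0368, adjusted 0.59 and 0.582), and its r was 0.54 without those libraries. With each subset centred on its own mean, r was 0.85 for Relb and 0.83 for Nfkbia. Leaving out the 2 libraries also narrows the range of Tnfrsf9. Ikbkg had an r of 0.73 and a rho of 0.71 (exact permutation p = 0.0411 and 0.0576, adjusted 0.613 for r), and its r was 0.37 without those libraries. At the other end, Tab2 had an r of -0.82, Map3k7 of -0.70 and Nfkb1 of -0.57 with Tnfrsf9. For Tab2 rho was -0.69 (exact permutation p = 0.0117 for r and 0.0694 for rho, adjusted 0.564 and 0.588). Its r was -0.74 without the 2 farthest libraries and -0.82 with each subset centred on its own mean. The depth of the libraries moves with these genes too: over the 8 libraries r with log2 gene reads was 0.66 for Nfkb2 and 0.60 for Tnfrsf9, and r with the summed dissociation-response genes was 0.54 for Nfkb2, 0.70 for Nfkbia and 0.57 for Tnfrsf9. Their part in the relation was not tested.

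**Figure D5:**
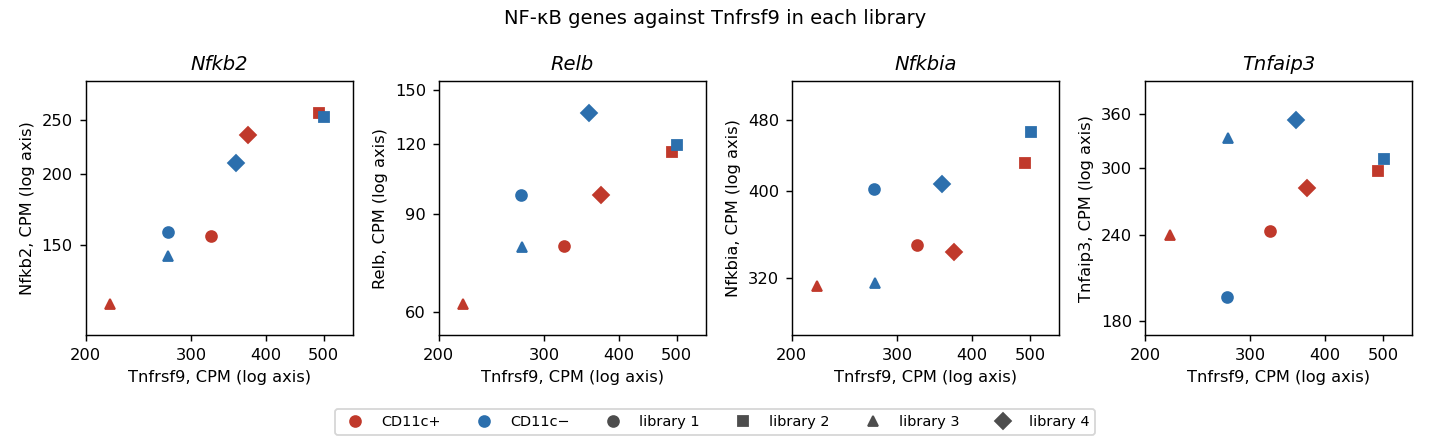
Nfkb2, Relb, Nfkbia and Tnfaip3 against Tnfrsf9 in the 8 libraries, CPM on log axes, with CD11c+ libraries in red and CD11c- libraries in blue. Nfkb2 climbs with Tnfrsf9 in both colours (r = 0.95), while Tnfaip3 is more scattered (r = 0.47).

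Other genes of the pathway were read from a list of 36, which holds the adaptors and ligases around the receptors, PKCθ, the linear ubiquitin complex and further regulators. All 36 were tested and 0 were called, against 0.0496% of all tested genes. Log2 fold changes were above 0 in 20 and below 0 in 16, against 51.7% above 0 over all tested genes. Their median was 0.03, against 0.01 over all tested genes. The highest CPM belonged to Prkcq, encoding PKCθ (408 CPM ± 60.6 in CD11c+ cells and 456 ± 64.2 in CD11c- cells; SD, n = 4 each), and to Rbck1, encoding the HOIL-1 subunit of the linear ubiquitin complex (366 CPM ± 50.3 in CD11c+ cells and 385 ± 37.2 in CD11c- cells). Itch, a ubiquitin ligase that works with A20, was the 1 gene of 36 with an unadjusted p under 0.05 by edgeR, against 4.7% of all tested genes. It averaged 98.4 CPM ± 28.0 in CD11c+ cells and 68.2 ± 14.5 in CD11c- cells, a log2 fold change of 0.53 ± 0.22 (SE) with an adjusted p of 0.991 by edgeR's quasi-likelihood test. Over the 17 other settings it ran from 0.16 to 0.67, and the lowest value, with an unadjusted p of 0.482 by edgeR, came when the 3 libraries with fewest detected genes were left out. Traf1 and Traf2, which encode adaptors that CD137 itself recruits, are given here after their values were seen. Traf1 averaged 230.2 CPM ± 37.02 in CD11c+ cells and 195 ± 10.9 in CD11c- cells. Traf2 averaged 140.1 CPM ± 23.6 in CD11c+ cells and 136 ± 22.7 in CD11c- cells, and neither gene passed the threshold.

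Of 34 target genes that NF-κB is known to induce in lymphocytes or other cells, 30 were tested. By edgeR's quasi-likelihood test 0 were called, against 0.0496% of all tested genes. Log2 fold changes were above 0 in 18 and below 0 in 12, against 51.7% above 0 over all tested genes. An unadjusted p under 0.05 by edgeR was found for 3 of the 30, against 4.7% of all tested genes. These were 2 chemokine genes, higher in CD11c+ cells, and Ier3, an early response gene, lower in CD11c+ cells. Ccl4, which encodes a chemokine made by activated CD8 T cells, was at 386, 635, 428 and 518 CPM in CD11c+ libraries 1 to 4, against 241, 389, 311 and 231 CPM in CD11c- libraries 1 to 4. The subsets overlapped at 1 pair of libraries, CD11c+ library 1 lying just below CD11c- library 2. The log2 fold change was 0.75 ± 0.19 (SE), with an adjusted p of 0.556 by edgeR's quasi-likelihood test and 0.0255 by DESeq2, which called it.

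Ccl3, a chemokine gene next to Ccl4, was at 153, 396, 171 and 234 CPM in CD11c+ libraries, against 89.7, 241, 107 and 98.0 CPM in CD11c- libraries. Library 2 was the highest of each subset. Its log2 fold change was 0.83 ± 0.34 (SE) and its adjusted p 0.991 by edgeR. Ier3 was at 15.1, 27.1, 25.7 and 20.7 CPM in CD11c+ libraries, against 39.7, 37.7, 36.9 and 28.2 CPM in CD11c- libraries, without overlap, and had a log2 fold change of -0.69 ± 0.25 (SE) with an adjusted p of 0.99 by edgeR. Of the 30 tested targets 2 had libraries without overlap, against 3.44% of all tested genes, Ier3 lower and Cxcl10 higher in CD11c+ cells. Cxcl10, a chemokine gene induced by interferon and named here after its values were seen, was at 8.41, 13.97, 9.98 and 8.73 CPM in CD11c+ libraries, against 0, 4.62, 7.15 and 6.70 CPM in CD11c- libraries. Its levels were low in both subsets, and its log2 fold change of 1.15 ± 0.80 (SE) had an adjusted p of 0.991 by edgeR. The targets with the highest CPM were the chemokine gene Ccl5 (5584 CPM ± 1368 in CD11c+ cells and 6510 ± 948 in CD11c- cells; SD, n = 4 each) and the filament gene Vim (1081 CPM ± 103 in CD11c+ cells and 1092 ± 90.7 in CD11c- cells), and neither passed the threshold.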

How the data were processed

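The authors deposited raw read counts per gene symbol, 1 table per library. They used bcl2fastq, TopHat2 2.0.8b, HTSeq and the build mm9, per the submitters' processing notes, and per the labels' protocols libraries were made by a modified SMART-seq2 protocol with 10 to 12 PCR cycles and 50 bp single reads. Which annotation and strand setting were used is not given in the sources used here. Reads placed at more than 1 place made up 52.0% ± 1.07 of all rows, and 65.1% ± 1.66 of uniquely placed reads fell in no gene (SD, n = 8). These summary rows stayed out of library sizes and tests.

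The test over 10073 genes was edgeR's (4.0.16, under R 4.3.3, with filterByExpr, TMM, glmQLFit and glmQLFTest, Benjamini-Hochberg over all tested genes, threshold 0.05). SEs and 95% intervals are Wald values from the same model. Alternatives used DESeq2 1.42.0 and limma 3.58.1 voom with quality weights, RLE factors, library size only, other filters, a replicate block and libraries left out. Scores used log2 CPM with a prior count of 2. Within each subset, library pairs differed by a chi-square of at least 9.43 per degree of freedom, so none was the same library deposited again. After PCR this does not tell technical repeats from separate samples. The edgeR test and its intervals were also run on simulated counts drawn independently for each library. How often changes as small as those of the NF-κB genes were called there is not reported here.

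The genes and lists were chosen with earlier results of these data known. Named with each library's value were the subunits, Nfkbia, Tnfaip3, the noncanonical control genes, and any with an unadjusted p under 0.05 or without overlap between subsets. Others are given by the largest absolute log2 fold change per role, and of the other lists those with an unadjusted p under 0.05 and the 2 of highest CPM. The search for motifs in proteins that had been planned was not run.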

Additional observations from a re-analysis of the deposited data

Results flagged for a closer look

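In each group of 4 libraries, the highest and the lowest value were set against the rest of the group, and 8 of 98 groups held a library far from the other 3. Chance alone gives about 1 in 20 groups. Among CD11c+ libraries, Rela was high in library 4 (194 CPM, the nearest at 163), Tank, a TBK1 adaptor, was low in library 3 (76.6 CPM, the nearest at 106), and Map3k14 was low in library 1 (4.50 CPM, the nearest at 10.8). Among CD11c- libraries, Chuk was low in library 4 (24.5 CPM, the nearest at 42.3), and Birc3 and Bcl10 were high in library 1 (95.6 CPM, the nearest at 77.2, and 123 CPM, the nearest at 86.2). Ccl3 was high in CD11c- library 2 (241 CPM, the nearest at 107). The canonical score was low in CD11c+ library 2 (-0.0909, the nearest at 0.04).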

How the results depend on the processing

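The count of NF-κB genes past the threshold was 0 under each of the 17 other settings of the test and at a threshold of 0.01. Over the 37 genes these settings gave 629 log2 fold changes, of which 80 had the opposite sign to the value reported. These came from 21 genes, the largest with a reported value of 0.34. The count over all genes, 5 (3 higher and 2 lower in CD11c+ cells), moved more. It was 12 (10 higher) without a filter, 8 (6 higher) with at least 5 CPM in 4 libraries, 11 (9 higher) with edgeR's legacy=FALSE, 29 (20 higher, 9 lower) with DESeq2 and 19 (14 higher, 5 lower) with limma voom. At a threshold of 0.01 it was 1 (1 higher, 0 lower). It was 11 (9 higher) when the 3 libraries with fewest detected genes were left out. Leaving out each library in turn gave 1 to 5 genes, 1 to 4 higher and 0 to 2 lower; CD11c+ libraries 1, 3 and 4 gave 2 each, CD11c- library 1 gave 2, library 2 gave 3, and libraries 3 and 4 gave 1 each. The cause was not tested.

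With the library number as a replicate block 13 genes were called (11 higher), 0 of them NF-κB genes. Deviations from the subset means correlated by 0.096, 0.17, 0.12 and 0.19 between same-numbered libraries 1 to 4; each library correlated best with its own number, a hint from the data, but the labels do not say that numbers mark shared mice.

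In the fit without the 3 libraries of fewest detected genes, Ikbkg, Tnfaip3 and Traf6 had an unadjusted p under 0.05 by edgeR, and Nfkbid did not. In other fits Traf6 (replicate block, limma voom, without CD11c+ library 1), Tnfaip8 (limma voom, without CD11c- library 4), Nfkb1 (without CD11c+ library 2) and Tnfaip3 (without CD11c- library 1) were under 0.05 beside Nfkbid. Traf6 ran from -0.73 to -0.29 over the 17 settings. The CD11c+ minus CD11c- difference of the canonical score turned to -0.0041 without CD11c- library 3. That of the noncanonical score, -0.05, turned to 0.03 without CD11c+ library 1 and to 0.03 without CD11c+ library 3. For Relb, r with Tnfrsf9 was 0.64 to 0.90 over libraries left out, settings added after seeing the data as were all those for r. Depth limits low genes most, as the intervals of Map3k14 and Tab3 show.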
